A study of Mus musculus with 23 samples.

Results

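Immediate early genes and genes of the dissociation and heat stress response were followed through sorted mouse macrophages. The set was a list of 37 gene symbols, matched by symbol, out of 26139 genes in the deposited tables. All 37 were in both tables, and 36 of them passed the filter on low values in each table. The member that did not was Fosl1, a FOS family subunit, listed at 0 in all but 3 of the 23 libraries, with 9.82 in RPM_d7_vavCre replicate 1, 0.876 in BMM_d7_WT replicate 2 and 1 in RPM_d7_Spic_KO replicate 1. By role the list held 8 AP-1 and ATF genes, 7 EGR, NR4A and MYC genes, 3 KLF genes, 14 feedback genes and 5 heat shock genes.

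The study sequenced poly(A) RNA from 1000 sorted macrophages per library of C57BL/6 mice, in 23 libraries and 8 groups. The first table held 4 groups of 3 libraries from pups at day 7: red pulp macrophages of the spleen (RPM_d7) and bone marrow macrophages (BMM_d7), each wild type (WT) or vavCre, a Cre recombinase under the Vav promoter that is active throughout blood-forming cells. The other table held only spleen macrophages: day-7 Spic_WT (3 libraries) and Spic_KO (2 libraries), the latter labelled as a knockout of the transcription factor gene Spic, and adult WT (2 libraries) and CreERT2 (4 libraries), both with TAM in their names. TAM is not defined in the labels and was read as tamoxifen, the drug that activates CreERT2. The floxed gene is not stated for either Cre, the promoter driving CreERT2 is not given, and the series design speaks of the few Pparg-deficient cells that remain. Whether libraries of a group came from separate mice is not stated either, so p-values measure the spread between these libraries only.

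Immediate early genes are switched on within minutes of a stimulus, without new protein synthesis, because their promoters already carry the factors that MAP kinase, calcium or cyclic AMP signals activate. AP-1 dimers of FOS and JUN proteins, the EGR zinc fingers and the NR4A nuclear receptors then act on later genes, while phosphatases and RNA-decay factors of the same wave shut the signal down. The same genes and the heat shock chaperones are known to rise while a tissue is cut, digested, warmed and sorted, so their level in sorted macrophages can hold both the state in the animal and the handling. The labels do not describe how the spleen and marrow were taken apart, and the 2 sources cannot be told apart here.

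On GRCm38, Fos (ENSMUSG00000021250) lies at chr12:85473890-85477273, Dusp1 (ENSMUSG00000024190) lies at chr17:26505590-26562128, Zfp36 (ENSMUSG00000044786) lies at chr7:28376784-28380253. Ier3 (ENSMUSG00000003541) lies at chr17:35821684-35822923, Hsp90aa1 (ENSMUSG00000021270) lies at chr12:110690605-110702728, Jund (ENSMUSG00000071076) lies at chr8:70698949-70700616, Klf2 (ENSMUSG00000055148) lies at chr8:72319033-72321656, Hspa8 (ENSMUSG00000015656) lies at chr9:40800984-40810087. The members were compact genes. Their median span in GENCODE vM21 (GRCm38) was 5.16 kb with 3 exons in the longest coding transcript, against 22.8 kb and 8 exons over 16374 protein-coding genes tested in at least 1 table. Of the 37 members, 31 (83.8%) had at most 4 exons, against 25.1% of those genes. RefSeq promoter windows on GRCm38.p6, the 250 bases before each annotated start, were at hand for 30 of the 37 members, 38 windows among 32851 in all. Fosl1, Egr1, Egr3, Myc, Ier2, Hspa8 and Hsp90aa1 were not matched.

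The short form TGACG of the cyclic AMP response element (CRE), searched on both strands, was in 57.9% of the member windows (17 genes) and in 17.8% of all windows. The full palindrome TGACGTCA, which holds TGACG on each strand, was in 7.89% of member windows (Btg2, Dusp1 and Ppp1r15a) and in 1.55% of all. The CArG box, the element bound by serum response factor (SRF), was in 15.8% of member windows (Dusp5, Egr2 and Zfp36) against 1.47%. By gene that is 3 of 30, since 4 of the 6 windows with it belong to Egr2, and 3 of those overlap and share 1 box. By window the GC box GGGCGG was in 73.7% against 32.7%. The AP-1 site TGANTCA was in 5.26% against 6.75%, TATAAA in 13.2% against 12.4%, and the heat shock unit pair GAANNTTC in 10.5% (Fosl2, Hspa1a, Hspa1b and Jun) against 6.69%. Member windows had a median GC content of 64.8% against 52.4% over all, and whether base composition alone gives these shares was not tested. A motif match describes letters and no binding.

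The windows below were chosen to show these elements in members the results turn on, and none overlaps an annotated exon in GENCODE vM21. Capitals mark the CRE motif TGACG on either strand, the CArG box and the heat shock pair, each sequence being written 5′ to 3′ along the gene's strand. Fos has 2 short CRE motifs, Btg2 the full palindrome, Nr4a1 and Nr4a2 4 short motifs each, and this Egr2 window, 1 of 5 for that gene, a CArG box beside short CRE motifs.

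Fos, chr12:85473640-85473889, plus strand: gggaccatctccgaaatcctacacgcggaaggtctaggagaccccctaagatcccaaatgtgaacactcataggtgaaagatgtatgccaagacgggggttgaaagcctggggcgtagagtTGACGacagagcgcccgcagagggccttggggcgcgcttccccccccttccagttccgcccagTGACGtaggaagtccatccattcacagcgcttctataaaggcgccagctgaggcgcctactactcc

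Btg2, chr1:134079156-134079405, minus strand: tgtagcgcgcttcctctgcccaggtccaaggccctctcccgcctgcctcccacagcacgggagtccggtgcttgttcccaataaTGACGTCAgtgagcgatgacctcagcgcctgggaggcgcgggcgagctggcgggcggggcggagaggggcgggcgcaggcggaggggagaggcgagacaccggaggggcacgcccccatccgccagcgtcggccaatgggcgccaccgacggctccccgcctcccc

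Nr4a1, chr15:101266596-101266845, plus strand: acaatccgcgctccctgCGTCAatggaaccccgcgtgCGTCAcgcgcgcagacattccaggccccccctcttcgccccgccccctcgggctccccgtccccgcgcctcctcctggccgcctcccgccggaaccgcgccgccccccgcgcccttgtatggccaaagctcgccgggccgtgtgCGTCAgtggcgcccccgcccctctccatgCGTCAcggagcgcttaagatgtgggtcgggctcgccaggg

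Nr4a2, chr2:57124004-57124253, minus strand: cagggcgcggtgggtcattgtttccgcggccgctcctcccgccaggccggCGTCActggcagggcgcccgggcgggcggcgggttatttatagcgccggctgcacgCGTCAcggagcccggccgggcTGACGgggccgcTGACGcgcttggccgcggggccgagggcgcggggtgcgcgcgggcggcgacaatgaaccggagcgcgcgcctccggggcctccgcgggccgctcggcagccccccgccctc

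Egr2, chr10:67537619-67537868, plus strand: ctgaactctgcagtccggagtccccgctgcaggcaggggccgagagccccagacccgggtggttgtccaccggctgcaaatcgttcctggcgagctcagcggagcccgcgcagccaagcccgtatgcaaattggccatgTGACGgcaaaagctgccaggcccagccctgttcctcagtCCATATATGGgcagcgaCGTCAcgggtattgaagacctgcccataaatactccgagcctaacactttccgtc

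Hspa1a and Hspa1b, the paired genes of stress-inducible HSP70, carry GAANNTTC at the same place. Their windows agree at 247 of 250 positions, and their transcripts are near-identical copies too, so how reads were divided between them is uncertain.

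Hspa1a, chr17:34972157-34972406, minus strand: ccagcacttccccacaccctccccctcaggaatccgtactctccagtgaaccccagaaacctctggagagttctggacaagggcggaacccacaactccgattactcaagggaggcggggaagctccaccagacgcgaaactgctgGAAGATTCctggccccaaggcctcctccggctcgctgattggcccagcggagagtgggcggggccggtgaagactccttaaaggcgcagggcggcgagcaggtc

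Hspa1b, chr17:34959239-34959488, minus strand: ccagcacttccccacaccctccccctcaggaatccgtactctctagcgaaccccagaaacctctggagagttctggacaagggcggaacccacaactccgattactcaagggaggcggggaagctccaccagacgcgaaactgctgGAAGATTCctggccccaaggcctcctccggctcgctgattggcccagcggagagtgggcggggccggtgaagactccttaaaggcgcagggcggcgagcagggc

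All values below are normalised read counts, each library scaled by 1 factor, so a gene can be compared between libraries of 1 table. Values are listed by replicate number, which is 1 to 3 or 1 and 2, except 1 and 3 in adult wild type and 1, 2, 4 and 5 in CreERT2. No length correction was made and genes are not ranked against each other. Recovered depth was 11.6 to 21.7 M reads in wild-type spleen, 12 to 17.1 in vavCre spleen, 4.26 to 10.8 in marrow and 0.693 to 6.29 in the other table. Every library carried macrophage RNA: the summed level of 12 macrophage markers was 1.77 to 2.69% of all values for the vavCre and matching wild-type libraries and 0.951 to 2.58% for the rest, with none at 0 in every library of a group. The 12 erythroid markers made up 0.98 to 3.77% and 5.09 to 20.8%. Changes are differences in log2(value + 1) from limma-trend, fitted on all 15130 or 16650 genes tested in the table, and a gene was called at a Benjamini-Hochberg adjusted p under 0.05. In bulk libraries, fewer cells of a type and less RNA per cell cannot be told apart.

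Many of these transcripts were higher in spleen than in marrow macrophages of the same age, in both genotypes, Fos, Egr1 and Dusp1 among them. In wild type 15 of 36 tested members were called higher in spleen and 0 lower, where 2.07% of all tested genes were called higher and 1.82% lower. In vavCre 23 of 36 were called higher and 0 lower, with 2.68% of all genes called higher and 0.82% lower. The median log2 change of the tested members was 1.22 in wild type and 2.09 in vavCre, against 0.02 and 0.03 over all tested genes. Every library of spleen lay above every library of marrow for 22 members in wild type (10.9% of all genes) and 26 in vavCre (10.8% of all genes), and the reverse held for 0 in either (9.72% and 8.69% of all genes). For 17 members all 6 spleen libraries lay above all 6 marrow libraries, as did 1.83% of all tested genes. All 15 wild-type calls were among the 23 in vavCre. The group means compared share no library, but both comparisons take their spread from 1 fit of all libraries in the first table, so their calls are not independent.

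**Figure D1:**
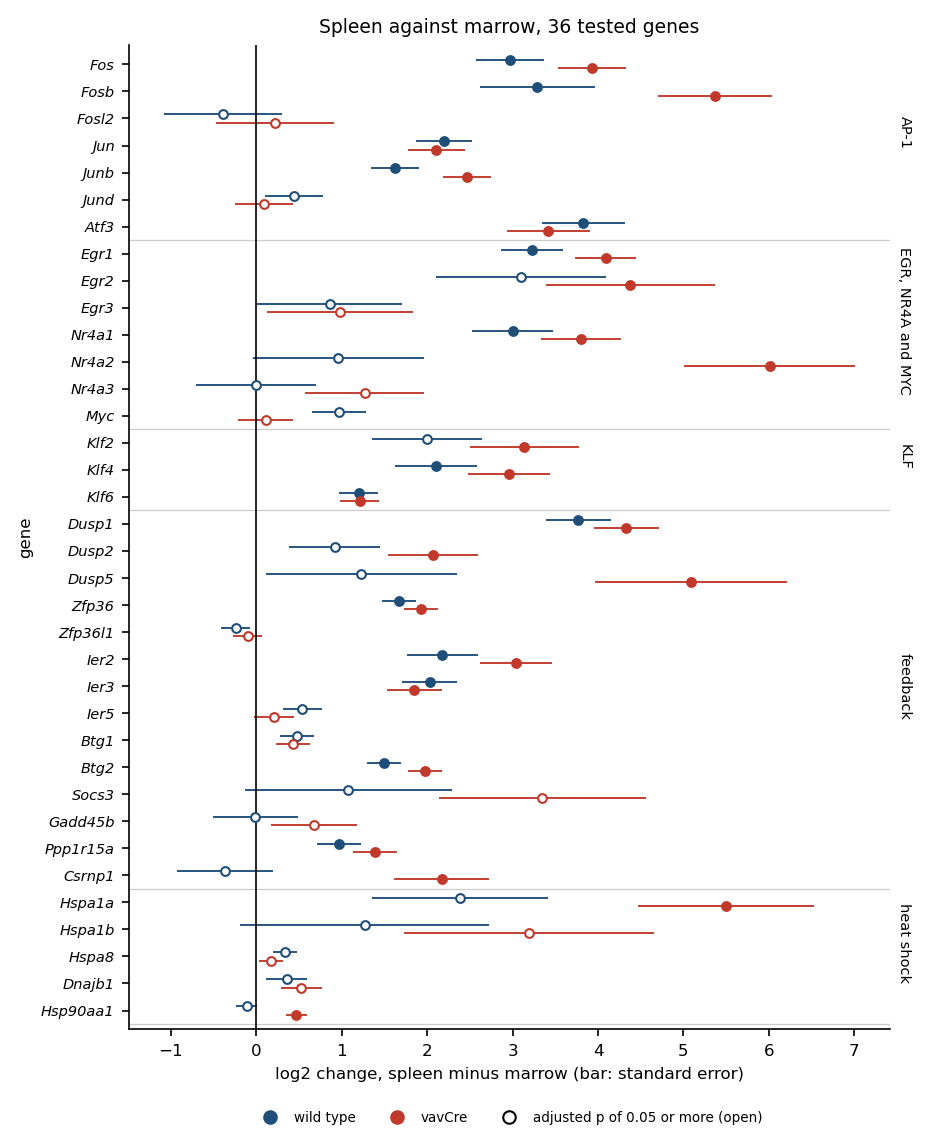
Log2 change of each of the 36 tested members between spleen and marrow, with its standard error, in wild type (blue) and vavCre (red), ordered by role. Filled points were called (adjusted p under 0.05), 15 in wild type and 23 in vavCre, and all filled points lie above 0.

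Among AP-1 genes, 5 of 7 tested were called higher in spleen in both genotypes. Fos read 3440.0, 4713 and 9356 in wild-type spleen against 571, 686 and 799.5 in wild-type marrow, and 4643, 6572 and 7788 against 579.8, 205 and 559 in vavCre. No spleen library of this FOS subunit, the classic partner of JUN, came near the marrow libraries. The log2 change by limma was 2.97 (SE 0.40, adjusted p = 0.000998) in wild type and 3.93 (SE 0.40, adjusted p = 7.8e-05) in vavCre. Fosb read 531, 969.8 and 794 in wild-type spleen against 119, 37.7 and 93 in wild-type marrow, and 462, 1296 and 1728 against 6.28, 24.2 and 79.2 in vavCre. Fosb, a close relative of Fos, was lowest in vavCre marrow replicate 1 and the tissues did not overlap. On the log2 scale Fosb differed between the tissues by 3.29 (SE 0.67, adjusted p = 0.00775) in wild type and 5.37 (SE 0.67, adjusted p = 5.6e-05) in vavCre by limma. Jun read 678, 1092 and 1660.0 in wild-type spleen against 259, 254 and 189 in wild-type marrow, and 582, 1173 and 1286 against 186, 281 and 206 in vavCre. Jun, the founding member of the family, did not overlap between tissues. Its change was 2.2 (SE 0.33, adjusted p = 0.000569) in wild type and 2.11 (SE 0.33, adjusted p = 0.0008) in vavCre by limma.

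Junb read 739, 671 and 1133 in wild-type spleen against 366, 187 and 273 in wild-type marrow, and 985, 956 and 763 against 161, 179 and 143 in vavCre. Junb, which tempers JUN activity, was above every marrow library in all 6 spleen libraries. By limma it differed by 1.63 (SE 0.28, adjusted p = 0.00194) in wild type and 2.47 (SE 0.28, adjusted p = 2.2e-05) in vavCre on the log2 scale. Atf3 read 477, 628 and 727 in wild-type spleen against 113, 24.5 and 25.1 in wild-type marrow, and 850.0, 845 and 1082 against 109, 46.1 and 122 in vavCre. Atf3 encodes a stress-induced repressor and activator of the ATF family, and its marrow values stayed far below spleen. Its log2 change was 3.83 (SE 0.49, adjusted p = 0.00011) and 3.42 (SE 0.49, adjusted p = 0.000309) in the same order by limma. Jund read 233, 260.1 and 151 in wild-type spleen against 189, 127 and 153 in wild-type marrow, and 171, 233 and 261 against 209, 171 and 239.9 in vavCre. Jund, the JUN protein that resting cells already hold, overlapped between the tissues, with 0.44 (SE 0.34, adjusted p = 0.6) and 0.09 (SE 0.34, adjusted p = 0.937) by limma. Fosl2 ranged from 32.2 to 161 in spleen and from 35.6 to 138 in marrow and was not called, with -0.39 (SE 0.69, adjusted p = 0.845) in wild type by limma.

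In the EGR, NR4A and MYC class 2 of 7 were called higher in spleen in wild type and 4 of 7 in vavCre. Egr1 read 676, 1050.0 and 1313 in wild-type spleen against 191, 71 and 81.5 in wild-type marrow, and 1771, 3044 and 3483 against 193, 133 and 145 in vavCre. Egr1, a zinc finger factor that MAP kinase signalling induces through SRF, showed no overlap. The log2 change by limma was 3.23 (SE 0.36, adjusted p = 1.7e-05) in wild type and 4.09 (SE 0.36, adjusted p = 8.5e-07) in vavCre. Egr2 read 38.7, 22.4 and 54.3 in wild-type spleen against 20.1, 0.876 and 1.04 in wild-type marrow, and 155, 163 and 212 against 2.09, 18.2 and 9.05 in vavCre. Egr2, a factor of myeloid and lymphoid differentiation, was at or below 20.1 in marrow and highest in vavCre spleen. On the log2 scale Egr2 differed between the tissues by 3.1 (SE 0.99, adjusted p = 0.101) in wild type and 4.38 (SE 0.99, adjusted p = 0.0173) in vavCre by limma. The vavCre call was lost without RPM_d7_vavCre replicate 1 (adjusted p = 0.0666), RPM_d7_vavCre replicate 2 (adjusted p = 0.0584), RPM_d7_vavCre replicate 3 (adjusted p = 0.0771) or BMM_d7_vavCre replicate 1 (adjusted p = 0.063). Nr4a1 read 526, 601 and 794 in wild-type spleen against 100.5, 63.1 and 75.2 in wild-type marrow, and 398, 774 and 686 against 52.3, 17 and 81.5 in vavCre. The tissues did not overlap for Nr4a1, the nuclear receptor NUR77. Its limma change was 3.0 (SE 0.47, adjusted p = 0.000782) in wild type and 3.8 (SE 0.47, adjusted p = 5.0e-05) in vavCre.

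Nr4a2 read 39.3, 32.4 and 9.58 in wild-type spleen against 8.04, 10.5 and 17.8 in wild-type marrow, and 25.2, 112 and 201 against 0, 1.21 and 0 in vavCre. Nr4a2, the relative NURR1, overlapped between the tissues in wild type and was close to 0 in vavCre marrow. The limma change was 0.96 (SE 1.00, adjusted p = 0.718) in wild type and 6.01 (SE 1.00, adjusted p = 0.00125) in vavCre. The 3 vavCre marrow libraries held 1 recovered read of Nr4a2 against 426 in vavCre spleen, a depth-adjusted ratio of 183 with a 95% counting interval of 32.6 to 7230. Egr3 read 4.23, 0.831 and 0.913 in wild-type spleen against 0, 0 and 2.09 in wild-type marrow, and 0, 0.848 and 3.17 against 0, 0 and 0 in vavCre. Nr4a3 read 0, 0 and 0 in wild-type spleen against 0, 0 and 0 in wild-type marrow, and 1.23, 0.848 and 2.38 against 0, 0 and 0 in vavCre. Both genes were at or near 0 throughout this table and were not called. Myc, which drives growth, ranged from 452 to 671 in wild-type spleen and from 203 to 412 in wild-type marrow without overlap. Its change of 0.97 (SE 0.32, adjusted p = 0.115) by limma was not called, and in vavCre spleen (214 to 279) and marrow (193 to 317) it overlapped.

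All 3 KLF genes were called higher in spleen in vavCre and 2 in wild type. Klf2 read 409, 1116 and 800.4 in wild-type spleen against 251, 114 and 199 in wild-type marrow, and 724, 2085 and 2242 against 85.8, 108 and 525 in vavCre. Klf2, a factor tied to quiescence in myeloid and endothelial cells, was above marrow in wild type in every library, and in vavCre too. The log2 change by limma was 2.0 (SE 0.64, adjusted p = 0.121) in wild type and 3.14 (SE 0.64, adjusted p = 0.0156) in vavCre. The vavCre call was lost without BMM_d7_vavCre replicate 1 (adjusted p = 0.0519) or BMM_d7_vavCre replicate 2 (adjusted p = 0.0695), and also in limma on the compared groups only (adjusted p = 0.0727) and in edgeR (adjusted p = 0.12). Klf4 read 205, 267 and 302 in wild-type spleen against 66.4, 47.3 and 62.7 in wild-type marrow, and 244, 635 and 855 against 85.8, 33.9 and 92.8 in vavCre. Klf4, which takes part in monocyte differentiation, showed no overlap. It differed by 2.11 (SE 0.48, adjusted p = 0.0173) and 2.96 (SE 0.48, adjusted p = 0.0011) by limma, and the wild-type call was lost without RPM_d7_WT replicate 2 (adjusted p = 0.06) or RPM_d7_WT replicate 3 (adjusted p = 0.0967). Klf6 read 2548, 2795 and 2821 in wild-type spleen against 1667, 735 and 1337 in wild-type marrow, and 2787, 3502 and 3913 against 1668, 1134 and 1632 in vavCre. Klf6, a relative linked to macrophage activation, was lower in every marrow library than in every spleen library. The change was 1.2 (SE 0.23, adjusted p = 0.00545) and 1.21 (SE 0.23, adjusted p = 0.00479) by limma.

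**Figure D2:**
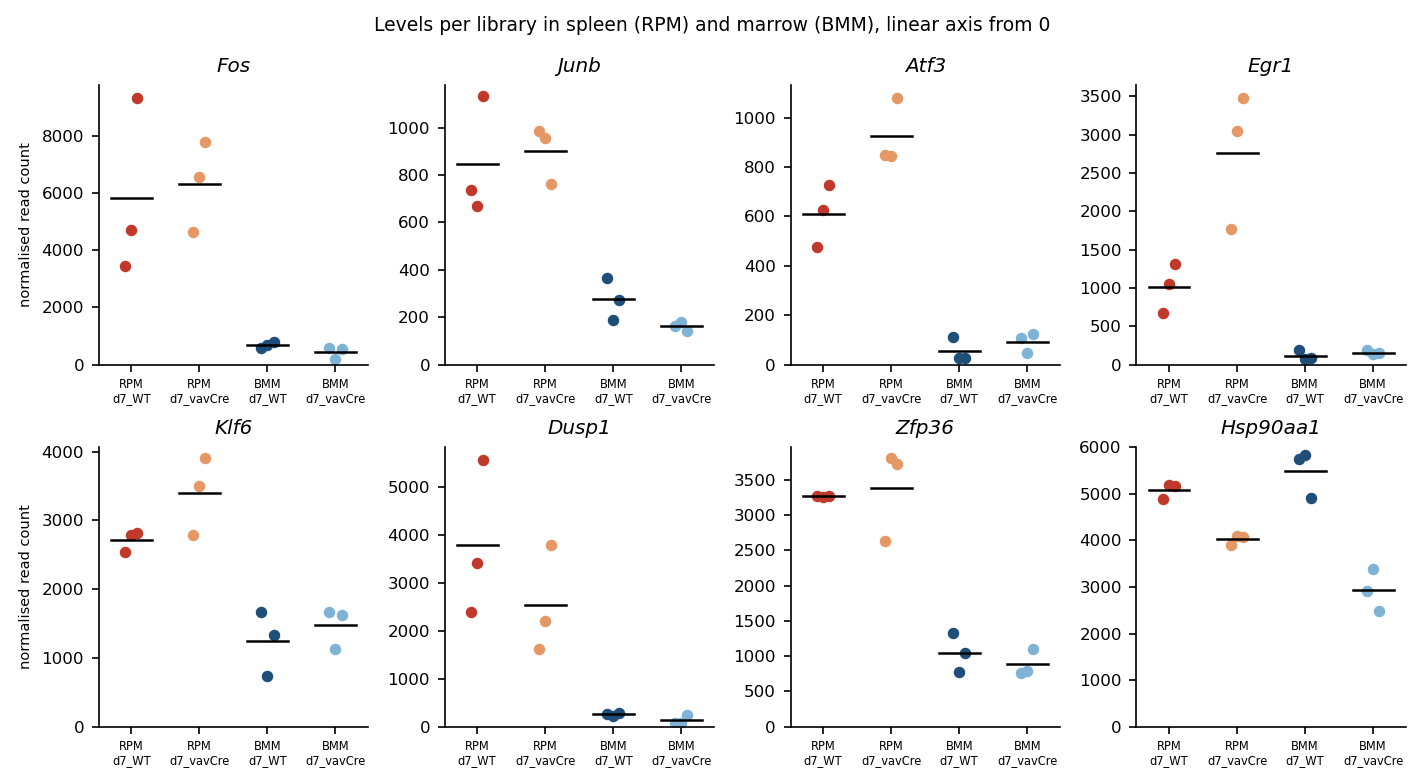
Normalised read count of 8 members in each library of the first table, 1 point per library, with the group mean as a line, on linear axes from 0. The 6 spleen libraries lie above the 6 marrow libraries for all members shown except Hsp90aa1, whose vavCre marrow libraries are lowest at 2476 to 3389.

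Feedback genes gave 6 of 14 calls in wild type and 9 of 14 in vavCre, all higher in spleen. Dusp1 read 2396, 3418 and 5576 in wild-type spleen against 263, 235 and 287 in wild-type marrow, and 1630.0, 2206 and 3802 against 79.5, 86.1 and 239.9 in vavCre. Dusp1, the nuclear phosphatase that inactivates p38 and JNK, had no spleen library near marrow. The log2 change by limma was 3.77 (SE 0.38, adjusted p = 5.7e-06) in wild type and 4.33 (SE 0.38, adjusted p = 8.5e-07) in vavCre. Zfp36 read 3274, 3256 and 3276 in wild-type spleen against 1333, 779 and 1041 in wild-type marrow, and 2626, 3814 and 3727 against 758, 794 and 1109 in vavCre. Zfp36 encodes tristetraprolin, which destroys AU-rich messages such as that of TNF, and its 3 wild-type spleen libraries were almost identical. On the log2 scale Zfp36 differed between the tissues by 1.67 (SE 0.20, adjusted p = 4.8e-05) in wild type and 1.93 (SE 0.20, adjusted p = 7.8e-06) in vavCre by limma. Btg2 read 1700.0, 1456 and 1588 in wild-type spleen against 464, 623 and 599 in wild-type marrow, and 1301, 1359 and 1339 against 435, 281 and 310.1 in vavCre. Btg2, an antiproliferative partner of the deadenylase complex, did not overlap between tissues. Its limma change was 1.5 (SE 0.20, adjusted p = 0.000162) in wild type and 1.98 (SE 0.20, adjusted p = 6.6e-06) in vavCre.

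Ier2 read 402, 339.9 and 854 in wild-type spleen against 143, 93.7 and 90.9 in wild-type marrow, and 776, 538 and 734 against 92.1, 43.6 and 134 in vavCre. Every spleen library of Ier2, a nuclear immediate early protein, exceeded marrow. The limma change was 2.18 (SE 0.42, adjusted p = 0.00506) and 3.04 (SE 0.42, adjusted p = 0.000188), and the wild-type call was lost without RPM_d7_WT replicate 3 (adjusted p = 0.052). Ier3 read 449, 372 and 513 in wild-type spleen against 107, 81.5 and 141 in wild-type marrow, and 1156, 1050.0 and 1176 against 534, 256 and 222 in vavCre. For Ier3, a regulator of survival and of ERK signalling, spleen exceeded marrow within each genotype, while vavCre marrow replicate 1 lay above all wild-type spleen libraries. It differed by 2.03 (SE 0.32, adjusted p = 0.000785) and 1.85 (SE 0.32, adjusted p = 0.00171) by limma. Ppp1r15a read 1245, 1320.0 and 1412 in wild-type spleen against 949, 577 and 560.2 in wild-type marrow, and 1288, 1525 and 1602 against 553, 368 and 853 in vavCre. Ppp1r15a encodes GADD34, which restarts translation after stress, and it was higher in spleen without overlap. The change was 0.97 (SE 0.26, adjusted p = 0.041) and 1.39 (SE 0.26, adjusted p = 0.00354) by limma. Its wild-type call was lost without RPM_d7_WT replicate 1 (adjusted p = 0.0964), RPM_d7_WT replicate 2 (adjusted p = 0.102), RPM_d7_WT replicate 3 (adjusted p = 0.163), BMM_d7_WT replicate 2 (adjusted p = 0.102) or BMM_d7_WT replicate 3 (adjusted p = 0.16), and also in limma with no filter on low values (adjusted p = 0.0726) and in limma with a pseudocount of 5 (adjusted p = 0.0559).

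Dusp2 read 277, 256 and 280.2 in wild-type spleen against 145, 194 and 104 in wild-type marrow, and 449.8, 213 and 271 against 23, 158 and 92.8 in vavCre. Dusp2, a nuclear MAP kinase phosphatase, was lowest in vavCre marrow replicate 1. It differed by 0.92 (SE 0.53, adjusted p = 0.433) and 2.07 (SE 0.53, adjusted p = 0.0358) by limma. The vavCre call was lost without RPM_d7_vavCre replicate 1 (adjusted p = 0.177), RPM_d7_vavCre replicate 2 (adjusted p = 0.0529), RPM_d7_vavCre replicate 3 (adjusted p = 0.0903) or BMM_d7_vavCre replicate 1 (log2 change 1.28, adjusted p = 0.11), and also in limma with no filter on low values (adjusted p = 0.0689), in limma with a pseudocount of 5 (adjusted p = 0.0507) and in limma on the compared groups only (adjusted p = 0.0855). Dusp5 read 112, 83.9 and 128 in wild-type spleen against 26.1, 83.2 and 40.8 in wild-type marrow, and 225, 76.3 and 113 against 0, 49.7 and 0 in vavCre. Dusp5, a phosphatase specific for ERK, was listed at 0 in 2 of the 3 vavCre marrow libraries. It differed by 1.23 (SE 1.12, adjusted p = 0.662) and 5.09 (SE 1.12, adjusted p = 0.0143) by limma, and the vavCre call was lost without RPM_d7_vavCre replicate 1 (adjusted p = 0.0799), BMM_d7_vavCre replicate 1 (adjusted p = 0.055) or BMM_d7_vavCre replicate 3 (adjusted p = 0.0502), and also in limma on the compared groups only (adjusted p = 0.054) and in edgeR (log2 change 2.93, adjusted p = 0.131). Csrnp1 read 59.2, 94.7 and 66.2 in wild-type spleen against 123, 70.1 and 92 in wild-type marrow, and 87.2, 134 and 126 against 14.7, 23 and 43 in vavCre. Csrnp1, a nuclear protein of the immediate early wave, overlapped between the tissues in wild type and was higher in every vavCre spleen library than in vavCre marrow. Its limma change was -0.36 (SE 0.56, adjusted p = 0.818) and 2.17 (SE 0.56, adjusted p = 0.0363). The vavCre call was lost without RPM_d7_vavCre replicate 1 (adjusted p = 0.0774), RPM_d7_vavCre replicate 2 (adjusted p = 0.129), RPM_d7_vavCre replicate 3 (adjusted p = 0.132), BMM_d7_vavCre replicate 1 (adjusted p = 0.0954) or BMM_d7_vavCre replicate 2 (adjusted p = 0.0668), and also in limma on the compared groups only (adjusted p = 0.107) and in edgeR (adjusted p = 0.0692).

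The other feedback genes were not called between tissues. Zfp36l1 read 1891, 1570.0 and 1582 in wild-type spleen against 2190.0, 1839 and 1925 in wild-type marrow, and 2079, 2649 and 3145 against 3039, 2285 and 3074 in vavCre. Ier5 read 731, 829 and 868 in wild-type spleen against 513, 462 and 721 in wild-type marrow, and 917, 1216 and 1366 against 923, 821 and 1292 in vavCre. Btg1 read 922, 1237 and 1376 in wild-type spleen against 724, 1056 and 759.8 in wild-type marrow, and 1064, 949 and 1027 against 892, 688 and 695 in vavCre. Zfp36l1, a relative of tristetraprolin, overlapped between the tissues in both genotypes, Ier5 was higher in spleen in every wild-type library and Btg1, a relative of Btg2, in every vavCre library. The limma change of Ier5 in wild type was 0.54 (SE 0.23, adjusted p = 0.236) and that of Btg1 in vavCre 0.43 (SE 0.20, adjusted p = 0.304). Gadd45b read 65.9, 55.7 and 30.6 in wild-type spleen against 38.2, 57.8 and 52.3 in wild-type marrow, and 122, 203 and 241 against 107, 92.1 and 147 in vavCre. Gadd45b, a stress sensor upstream of p38, overlapped in both genotypes. Socs3, the inhibitor of JAK-STAT signalling, ranged from 2.42 to 64.4 in spleen and from 0 to 14.6 in marrow. Socs3 gave 3.35 (SE 1.21, adjusted p = 0.154) in vavCre by limma.

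Heat shock genes gave 0 of 5 calls in wild type and 2 of 5 in vavCre. In wild type 2 of the 5 had an unadjusted limma p under 0.05 (15.8% of all genes), edgeR called 0 (3.99% of all genes) and DESeq2 called 1, Hspa1a (6.38% of all genes). Hspa1a read 43.5, 175 and 214 in wild-type spleen against 10.1, 23.6 and 41.8 in wild-type marrow, and 73.7, 639 and 351 against 0, 17 and 9.05 in vavCre. Hspa1a was above marrow in all 6 spleen libraries, with low replicate 1 libraries in both spleen groups. It differed by 2.39 (SE 1.03, adjusted p = 0.252) in wild type and 5.5 (SE 1.03, adjusted p = 0.00358) in vavCre by limma. Hspa1b ranged from 1.81 to 120.4 in spleen and from 0 to 22.1 in marrow and was not called. Hspa8 read 9083, 9374 and 13250.0 in wild-type spleen against 8219, 9087 and 7471 in wild-type marrow, and 12190.0, 10200.0 and 9116 against 8940.0, 10130.0 and 8874 in vavCre. Hspa8, the constitutive HSC70 chaperone, overlapped between the tissues, with 0.34 (SE 0.14, adjusted p = 0.224) and 0.17 (SE 0.14, adjusted p = 0.606) by limma. Hsp90aa1 read 4890.0, 5192 and 5157 in wild-type spleen against 5743, 5841 and 4906 in wild-type marrow, and 3900.0, 4087 and 4071 against 2924, 3389 and 2476 in vavCre. Hsp90aa1, the inducible form of HSP90, was lowest in vavCre marrow. It differed by -0.11 (SE 0.12, adjusted p = 0.739) and 0.47 (SE 0.12, adjusted p = 0.0435) by limma, and the latter call was lost without RPM_d7_vavCre replicate 1 (adjusted p = 0.0951), RPM_d7_vavCre replicate 2 (adjusted p = 0.124), RPM_d7_vavCre replicate 3 (adjusted p = 0.136), BMM_d7_vavCre replicate 1 (adjusted p = 0.0899) or BMM_d7_vavCre replicate 3 (adjusted p = 0.158), and also in limma with no filter on low values (adjusted p = 0.0577), in limma on the compared groups only (adjusted p = 0.0768) and in edgeR (adjusted p = 0.054). Dnajb1, the HSP40 partner of HSP70, ranged from 507 to 800.4 in spleen and from 367 to 524 in marrow and was not called.

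Leaving out each library in turn, 12 of the 15 wild-type calls and 17 of the 23 vavCre calls were made every time. Single libraries ran high or low over many members. RPM_d7_WT replicate 3 was the highest of its group for 23 of 35 members (35.9% of all genes) and RPM_d7_vavCre replicate 3 for 20 of 36 (31.8%). RPM_d7_WT replicate 1 was the lowest for 20 of 35 (34.3% of all genes) and RPM_d7_vavCre replicate 1 for 25 of 36 (38.4%). Marrow libraries were shallower than spleen libraries, as given above. The erythroid share was 2.3 to 3.51% in wild-type spleen and 2.57 to 3.77% in wild-type marrow, with 0 of 12 markers called by limma (3 at an unadjusted p under 0.05, 0 by edgeR and 1 by DESeq2). In vavCre 4 of 12 were called higher in spleen. Of 10 B cell markers 3 were called lower in wild-type spleen, at 0.0298 to 0.0642% against 0.04 to 0.113% in sum. Of 12 macrophage markers 6 were called higher in spleen in each genotype, and 1 lower in wild type. Monocyte markers summed to 0.0085 to 0.0095% in wild-type spleen and 0.0096 to 0.0137% in wild-type marrow, with 1 of 8 called lower in spleen, and neutrophil markers to 0.0291 to 0.059% in vavCre spleen and 0.0203 to 0.0272% in vavCre marrow, with 1 of 12 called higher. Mitochondrially encoded transcripts made up 3.99 to 4.28% in wild-type spleen and 3.62 to 4.66% in wild-type marrow. The part of depth and of these markers in the tissue difference was not tested.

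Of 26 tested other immediate early genes, 3 were called higher and 1 lower in spleen in wild type, and 5 higher and 0 lower in vavCre. Rgs1, which dampens G protein signalling, had means of 6353 ± 1075 against 339 ± 171 (SD, n = 3 each) in wild type, a limma log2 change of 4.35 (SE 0.33, adjusted p = 2.2e-07). Nfkbiz, a nuclear IkB protein, changed by 1.76 (SE 0.30, adjusted p = 0.00155) and Trib1, a pseudokinase, by -1.19 (SE 0.28, adjusted p = 0.0194) in wild type by limma. In vavCre Rgs1 changed by 4.54 (SE 0.33, adjusted p = 8.3e-08), Cyr61, a matricellular protein gene, by 4.5 (SE 0.90, adjusted p = 0.00661) and Nfkbiz by 1.22 (SE 0.30, adjusted p = 0.0266) by limma. Of 22 MAP kinase and SRF genes 0 were called higher and 1 lower in wild type, and 0 either way in vavCre, where 5 had an unadjusted limma p under 0.05, edgeR called 1 and DESeq2 called 2. The 1 was Mapk3, the kinase ERK1, at -1.18 (SE 0.23, adjusted p = 0.00563) by limma. Of 13 tested bZIP partners 0 were higher and 1 lower in wild type (Maf, -0.68 (SE 0.16, adjusted p = 0.0215) by limma). In vavCre 0 were called, 1 had an unadjusted limma p under 0.05, edgeR called 0 and DESeq2 called 1. Over all 15130 tested genes 2495 had such a p in vavCre, edgeR called 498 and DESeq2 called 963. Of 14 other heat shock genes 1 was higher in each genotype. These were Hspa5, the chaperone BiP of the endoplasmic reticulum, at 0.58 (SE 0.11, adjusted p = 0.00487) in wild type and Hspb1, the small chaperone HSP25, at 4.47 (SE 1.11, adjusted p = 0.0303) in vavCre by limma.

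**Figure D3:**
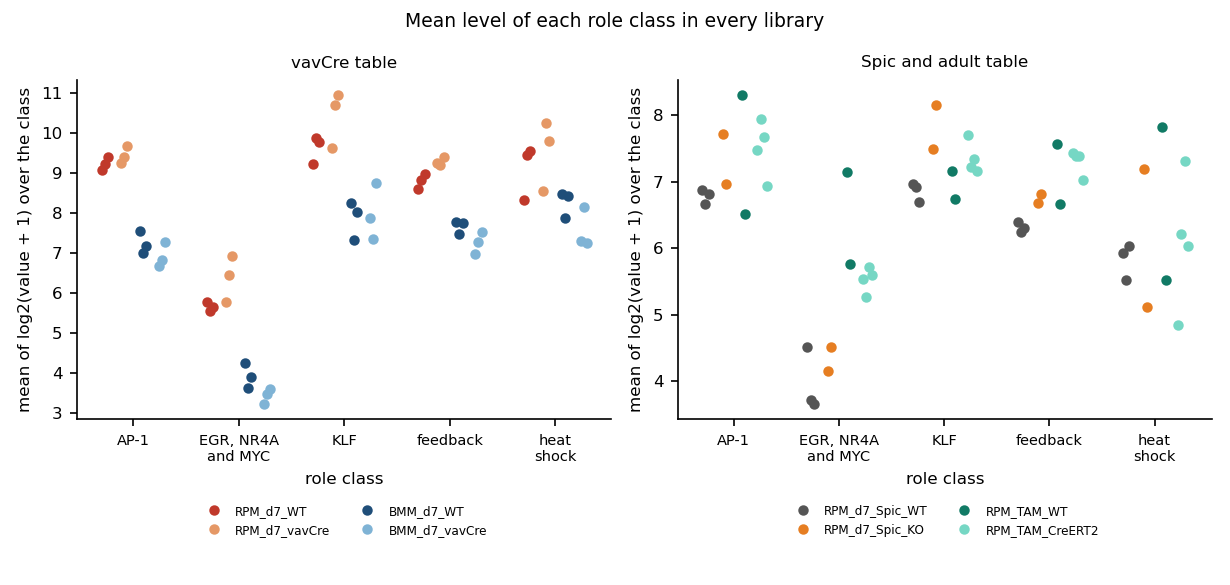
Mean of log2(value + 1) over the tested members of each role class, 1 point per library, in the first table (left) and in the table of Spic and adult libraries (right), which are scaled separately. In the first table the AP-1 mean is 9.07 to 9.68 in spleen and 6.66 to 7.54 in marrow, and in the other table RPM_TAM_WT replicate 1 has the highest AP-1, feedback and heat shock means at 8.3, 7.57 and 7.82.

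Fewer members were called between the genotypes within a tissue than between the tissues. In spleen 4 of 36 tested members were called higher and 0 lower, where 2.98% of all genes were called higher and 2.54% lower. In marrow 2 were called higher and 3 lower, where 3.41% of all genes were called higher and 4.4% lower. The median member change was 0.27 in spleen and -0.26 in marrow, against -0.02 and -0.04 over all genes.

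The spleen calls were Egr1, Ier3, Gadd45b and Zfp36l1, whose values in every library are given above. Egr1 was higher in all 3 vavCre spleen libraries (1771 to 3483) than in wild type (676 to 1313), a log2 change of 1.44 (SE 0.36, adjusted p = 0.0196) by limma. Ier3 was higher at 1050.0 to 1176 in vavCre against 372 to 513 in wild type, by 1.35 (SE 0.32, adjusted p = 0.0135) in limma. Neither gene overlapped between the genotypes. Gadd45b was higher at 122 to 241 against 30.6 to 65.9, by 1.89 (SE 0.50, adjusted p = 0.0321) in limma. Zfp36l1 was higher at 2079 to 3145 against 1570.0 to 1891, by 0.63 (SE 0.17, adjusted p = 0.0321) in limma. Each of the 4 limma calls was lost without at least 1 library. Egr1 was lost without RPM_d7_WT replicate 1 (adjusted p = 0.127), RPM_d7_WT replicate 2 (adjusted p = 0.0575), RPM_d7_vavCre replicate 2 (adjusted p = 0.0935) or RPM_d7_vavCre replicate 3 (adjusted p = 0.119). Ier3 was lost without RPM_d7_WT replicate 2 (adjusted p = 0.0762), RPM_d7_vavCre replicate 1 (adjusted p = 0.0518) or RPM_d7_vavCre replicate 3 (adjusted p = 0.0635). Gadd45b was lost without RPM_d7_WT replicate 2 (adjusted p = 0.0718), RPM_d7_WT replicate 3 (adjusted p = 0.142), RPM_d7_vavCre replicate 2 (adjusted p = 0.134) or RPM_d7_vavCre replicate 3 (adjusted p = 0.16) and Zfp36l1 without RPM_d7_WT replicate 2 (adjusted p = 0.123), RPM_d7_WT replicate 3 (adjusted p = 0.107), RPM_d7_vavCre replicate 2 (adjusted p = 0.107) or RPM_d7_vavCre replicate 3 (adjusted p = 0.186), and also in limma with no filter on low values (adjusted p = 0.0505). The number of members called was 0 without RPM_d7_WT replicate 2, 2 without RPM_d7_WT replicate 3, 1 without RPM_d7_vavCre replicate 2 and 0 without RPM_d7_vavCre replicate 3. Over all genes 555, 618, 536 and 562 were called without these libraries in the same order, against 835 with all.

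Of the members not called by limma in spleen, Myc was lower in all 3 vavCre libraries (214 to 279 against 452 to 671) at -1.1 (SE 0.32, adjusted p = 0.0518) by limma, and was called by edgeR (adjusted p = 0.0329) and DESeq2 (adjusted p = 0.0107). Egr2 was higher in all 3, at 2.24 (SE 0.99, adjusted p = 0.263) by limma, and was called by none of the 3 tools, while limma on the compared groups only called it (adjusted p = 0.00423). In marrow DESeq2 also called Nr4a2 (adjusted p = 0.0364) and Zfp36l1 (adjusted p = 0.0488), which limma and edgeR did not. All libraries of a genotype lay above the other for 9 members (11.6% of all genes) and below for 3 (12.4% of all genes) in spleen, and for 4 (8.96%) and 5 (10.9%) in marrow.

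In marrow Ier3 was higher at 222 to 534 in vavCre against 81.5 to 141 in wild type, by 1.53 (SE 0.32, adjusted p = 0.00447) in limma. Ier5, a partner of heat shock factor, was higher at 821 to 1292 against 462 to 721, by 0.84 (SE 0.23, adjusted p = 0.026) in limma. Ier3 and Ier5 had no overlap between the genotypes. Hsp90aa1 was lower in vavCre marrow in every library (2476 to 3389 against 4906 to 5841), -0.92 (SE 0.12, adjusted p = 8.3e-05) by limma. Btg2 was lower at 281 to 435 against 464 to 623, -0.73 (SE 0.20, adjusted p = 0.0312) by limma. Csrnp1 was lower at 14.7 to 43 against 70.1 to 123, -1.88 (SE 0.56, adjusted p = 0.0456) by limma. The genotypes did not overlap for these 3 members either. Ier3 and Hsp90aa1 were called with every library left out in turn. Ier5 was lost without BMM_d7_WT replicate 1 (adjusted p = 0.0823), BMM_d7_WT replicate 2 (adjusted p = 0.0908) or BMM_d7_vavCre replicate 3 (adjusted p = 0.121), Btg2 without BMM_d7_WT replicate 2 (adjusted p = 0.0899), BMM_d7_WT replicate 3 (adjusted p = 0.0988), BMM_d7_vavCre replicate 2 (adjusted p = 0.101) or BMM_d7_vavCre replicate 3 (adjusted p = 0.0815) and Csrnp1 without BMM_d7_WT replicate 1 (adjusted p = 0.146), BMM_d7_WT replicate 2 (adjusted p = 0.0518), BMM_d7_WT replicate 3 (adjusted p = 0.104), BMM_d7_vavCre replicate 1 (adjusted p = 0.124) or BMM_d7_vavCre replicate 2 (adjusted p = 0.0771), and also in edgeR (adjusted p = 0.0873). Without BMM_d7_WT replicate 2 or replicate 3 the count of members called was 3. With only the compared groups fitted 1 member, Hsp90aa1, was called.

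**Figure D4:**
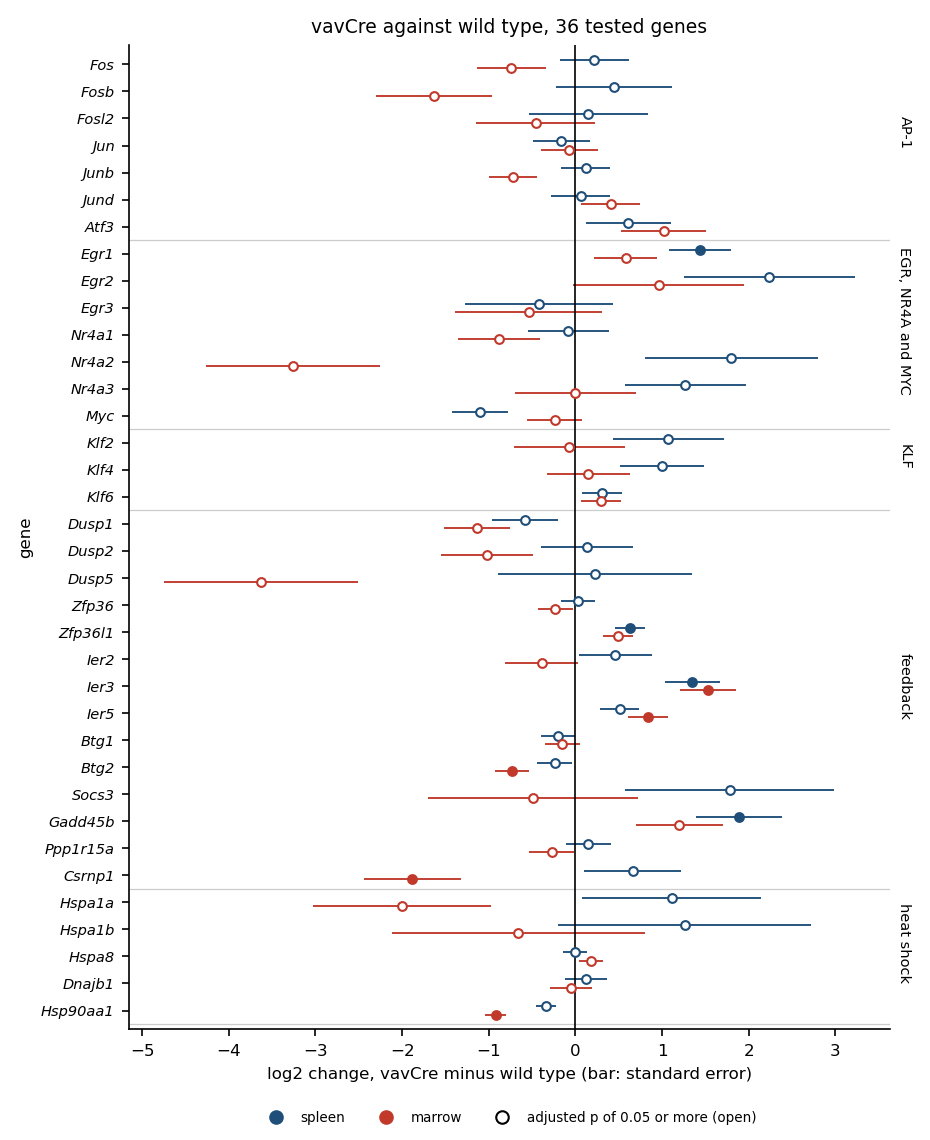
Log2 change of each of the 36 tested members between vavCre and wild type, with its standard error, in spleen (blue) and marrow (red), ordered by role. Filled points were called, 4 in spleen and 5 in marrow, and Ier3 is filled in both.

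The difference between the spleen and marrow effects of vavCre, which is also the difference between the tissue changes of the genotypes, was called for 0 of 36 tested members by limma, where 0.119% of all genes were called. At an unadjusted p under 0.05 there were 7 members (6.18% of all genes), edgeR called 0 (0.205% of all genes) and DESeq2 called 1 (0.668% of all genes), Nr4a2. Nr4a2 had the largest difference of the members, 5.06 (SE 1.41, adjusted p = 0.367) by limma. For the 8 members called between tissues in vavCre and not in wild type (Csrnp1, Dusp2, Dusp5, Egr2, Hsp90aa1, Hspa1a, Klf2 and Nr4a2) a difference between the genotypes was therefore not shown by limma. Without BMM_d7_vavCre replicate 2 the count was 1. Erythroid markers moved with vavCre: 9 of 12 were called lower in spleen (1.17 to 1.62% in sum against 2.3 to 3.51%) and 11 of 12 in marrow (0.98 to 1.44% against 2.57 to 3.77%). Neutrophil markers made up 0.0291 to 0.059% in vavCre spleen and 0.00704 to 0.029% in wild-type spleen, with 2 of 12 called higher, and no erythroid or neutrophil marker was at 0 in every library of a spleen group. In marrow Elane, a granule protease of neutrophil precursors, was at 0 in every library. Eosinophil and mast cell markers were lower in sum in vavCre, at 0.00555 to 0.00645% against 0.0325 to 0.0401% in spleen. In marrow they made up 0.00108 to 0.00608% against 0.0196 to 0.0309%. Limma called 1 of 6 tested lower in each tissue, Ear2, and this gene held most of the wild-type sums. Its lowest wild-type value in spleen was 3060, where the summed level was 3142 to 3896, and its highest vavCre value there was 604. For marrow the same 2 Ear2 values were 1760 and 81.5. Of the 6 tested, 5 had a negative log2 change in each tissue. The 8 monocyte markers summed to 0.00303 to 0.00685% against 0.0085 to 0.0095% in spleen and 0.00333 to 0.00741% against 0.0096 to 0.0137% in marrow. In spleen 4 of the 8 had a positive log2 change, with a median of 0.52, and in marrow 0 did. Limma and edgeR called 0 of them in either tissue (2 at an unadjusted limma p under 0.05 in each, and 1 by DESeq2 in spleen and 0 in marrow). Endothelial and stromal markers made up 0.00654 to 0.0102% against 0.013 to 0.0271% in spleen and 0.00378 to 0.00869% against 0.0114 to 0.0146% in marrow. Limma called 1 of 8 lower in each, Pecam1, while 5 of the 8 had a positive log2 change in spleen and 1 in marrow. B cell markers made up 0.0189 to 0.0305% in vavCre marrow and 0.04 to 0.113% in wild-type marrow, with 2 of 10 called lower, and overlapped in sum in spleen. Their part in the member changes was not tested.

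Among other immediate early genes vavCre spleen had 3 of 26 called higher and 4 lower, and marrow 1 higher and 3 lower. The glucocorticoid-regulated kinase gene Sgk1 had means of 876 ± 126 against 2146 ± 443 (SD, n = 3 each) in spleen, -1.28 (SE 0.21, adjusted p = 0.000546) by limma. Bhlhe40, a repressor of the circadian system, changed by -2.85 (SE 0.52, adjusted p = 0.0018) in spleen and -4.2 (SE 0.52, adjusted p = 3.5e-05) in marrow by limma. Trib1 changed by 1.31 (SE 0.28, adjusted p = 0.00617) in spleen, and in marrow Plk3, a stress kinase, by -2.26 (SE 0.41, adjusted p = 0.00152) and Nfkbiz by 1.62 (SE 0.30, adjusted p = 0.00169), all by limma. MAP kinase and SRF genes gave 3 of 22 higher and 0 lower in spleen: Mapkapk2, the p38 effector kinase MK2, at 0.98 (SE 0.20, adjusted p = 0.00452), Mapk3 at 1.1 (SE 0.23, adjusted p = 0.00485) and Spred1, an inhibitor of RAS signalling, at 0.78 (SE 0.21, adjusted p = 0.0301) by limma. In marrow 1 was higher and 0 lower, Mapkapk2 at 0.68 (SE 0.20, adjusted p = 0.0416) by limma. Maf was the 1 bZIP partner called of 13, at 0.9 (SE 0.16, adjusted p = 0.0015) in spleen and 0.78 (SE 0.16, adjusted p = 0.00468) in marrow by limma. Other heat shock genes gave 0 of 14 calls by limma in spleen. There 2 had an unadjusted limma p under 0.05 (2439 of all 15130 genes), edgeR called 1 (887 of all) and DESeq2 called 1 (1290 of all). In marrow 1 was higher, Hspa5 at 0.42 (SE 0.11, adjusted p = 0.0211) by limma.

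In the other table limma called few members, and most of those with age. Spic_KO spleen had 2 of 36 tested members called higher and 0 lower, where 1.47% of all genes were called higher and 2.48% lower. CreERT2 had 0 called against adult wild type, where 0.144% of all genes were called. Adult wild type had 6 called higher and 1 lower than day-7 Spic_WT, where 1.56% of all genes were called higher and 1.86% lower. The median member change was 0.43, 0.00 and 0.89 in that order, against 0.00 over all genes in each. Spic_KO and the age comparison share the Spic_WT libraries, and CreERT2 and the age comparison share the adult wild-type libraries.

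The 2 adult wild-type libraries stood apart from each other before any test. Replicate 1 was higher than replicate 3 for 34 of 36 members, where 49.5% of all tested genes were. With 2 libraries it cannot be told which is the unusual one. The mean of log2(value + 1) over the tested members was 7.63 in replicate 1 and 6.30 in replicate 3, against 6.60 to 7.10 in CreERT2. In Spic_KO, replicate 1 was the higher of the pair for 23 of 36 members (49.7% of all genes). Each limma call against adult wild type is therefore also given without replicate 1, and a loss without replicate 3 is named. Neither edgeR nor DESeq2 was run with a library left out. Spic itself ranged from 1993 to 3110.0 in Spic_WT and from 931 to 1236 in Spic_KO. Reads from outside the deleted stretch would remain, and which stretch was deleted is not given in the labels.

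Of 7 tested AP-1 genes Jund was the 1 called by limma in this table. Jund read 25.5, 27.7 and 24.3 in Spic_WT, 161 and 112 in Spic_KO, 354 and 68.7 in adult wild type and 214, 569.5, 221 and 216 in CreERT2. Jund was lowest and most even in day-7 Spic_WT, and all Spic_KO and adult libraries lay above it. It changed by 2.34 (SE 0.56, adjusted p = 0.0199) in Spic_KO and by 2.55 (SE 0.56, adjusted p = 0.0122) with age by limma. The Spic_KO call was lost without RPM_d7_Spic_WT replicate 1 (adjusted p = 0.0608), RPM_d7_Spic_WT replicate 3 (adjusted p = 0.059), RPM_d7_Spic_KO replicate 1 (adjusted p = 0.0612) or RPM_d7_Spic_KO replicate 2 (adjusted p = 0.0591), and the count of members called was then 1, except 3 without RPM_d7_Spic_KO replicate 1. Over all genes 658 were called with all libraries, 261 to 355 without a Spic_WT library, 1972 without RPM_d7_Spic_KO replicate 1 and 297 without RPM_d7_Spic_KO replicate 2. The age call was lost without RPM_TAM_WT replicate 1 (log2 change 1.38, adjusted p = 0.519). Fos read 809.9, 518 and 617 in Spic_WT, 653 and 406 in Spic_KO, 637 and 381 in adult wild type and 558, 394, 575 and 479 in CreERT2. Junb read 192, 194 and 206 in Spic_WT, 320.4 and 199 in Spic_KO, 753 and 149 in adult wild type and 474, 771, 508 and 475 in CreERT2. Fosb read 182, 142 and 149 in Spic_WT, 182 and 58.5 in Spic_KO, 390.3 and 94.8 in adult wild type and 211, 213, 270.0 and 119 in CreERT2. Fos overlapped between all 4 groups, and for Junb and Fosb the adult replicate 1 library was far above replicate 3. Jun read 75.6, 67.3 and 83.8 in Spic_WT, 177 and 89.5 in Spic_KO, 144 and 76 in adult wild type and 82.9, 135, 102 and 75.8 in CreERT2. Atf3 read 183, 91.5 and 99 in Spic_WT, 215 and 133 in Spic_KO, 122 and 50.3 in adult wild type and 75, 68.7, 73.4 and 33.4 in CreERT2. Jun and Atf3 overlapped between adult wild type and both of its comparison groups, and neither was called. Fosl2 ranged from 25.7 to 260.5 over the table.

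In the EGR, NR4A and MYC class both age calls by limma were of genes near 0 in pups. Egr3 read 3.79, 2.8 and 2.27 in Spic_WT, 14 and 0 in Spic_KO, 175 and 64 in adult wild type and 32.9, 19.9, 10.3 and 46.2 in CreERT2. Egr3, which restrains lymphocyte activation, was higher in both adult wild-type libraries, by 4.77 (SE 1.06, adjusted p = 0.0134) in limma, and not called without RPM_TAM_WT replicate 1 (log2 change 4.06, adjusted p = 0.362), and also in limma with a pseudocount of 0.1 (adjusted p = 0.0627). Nr4a3 read 0.505, 0 and 0 in Spic_WT, 0 and 2.07 in Spic_KO, 27.8 and 15.2 in adult wild type and 11.4, 37.7, 21.6 and 11.6 in CreERT2. Nr4a3, the relative NOR1, differed with age by 4.23 (SE 1.05, adjusted p = 0.0259) in limma. Day-7 Spic_WT held 2 recovered reads against 76 in adult wild type, a depth-adjusted ratio of 94.3 with a 95% counting interval of 25.2 to 793. Its call was lost without RPM_d7_Spic_WT replicate 1 (adjusted p = 0.0818), RPM_d7_Spic_WT replicate 2 (adjusted p = 0.0899), RPM_d7_Spic_WT replicate 3 (adjusted p = 0.102), RPM_TAM_WT replicate 1 (log2 change 3.82, adjusted p = 0.37) or RPM_TAM_WT replicate 3 (adjusted p = 0.0563). Nr4a1 read 151, 112 and 119 in Spic_WT, 169 and 155 in Spic_KO, 528 and 217 in adult wild type and 88.6, 79.8, 153 and 157 in CreERT2. Nr4a1 was lower in all 4 CreERT2 libraries than in both adult wild-type libraries, -1.56 (SE 0.40, adjusted p = 0.195) by limma with an unadjusted p of 0.000902. Against day-7 Spic_WT the adult wild type gave 1.41 (SE 0.42, adjusted p = 0.0741) for this gene by limma. Egr1 read 326, 193 and 209 in Spic_WT, 235 and 550.0 in Spic_KO, 403 and 169 in adult wild type and 228, 157, 201 and 154 in CreERT2. Egr2 read 19.2, 5.61 and 5.5 in Spic_WT, 35 and 54.3 in Spic_KO, 113 and 11.9 in adult wild type and 65.9, 33.2, 56.5 and 19.3 in CreERT2. Nr4a2 read 8.85, 2.45 and 1.29 in Spic_WT, 0 and 34.1 in Spic_KO, 112 and 32.2 in adult wild type and 23.9, 19.9, 28.2 and 29.5 in CreERT2. Egr1 overlapped between groups, while Egr2 and Nr4a2 were highest in adult wild type replicate 1, and limma called none of the 3. With age Nr4a1 and Nr4a2 were called by edgeR and DESeq2 (adjusted p = 0.0189 and 0.00255 for Nr4a1, 0.0425 and 0.00955 for Nr4a2), and Egr2 by DESeq2 (adjusted p = 0.0295). Myc ranged from 5.69 to 82.8 and was not called.

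Of the KLF genes limma called Klf2 in Spic_KO and no KLF gene in the other comparisons of this table. Klf2 read 124, 83.4 and 114 in Spic_WT, 371 and 288 in Spic_KO, 255 and 167 in adult wild type and 274, 208, 249 and 288 in CreERT2. Both Spic_KO libraries lay above all Spic_WT libraries, 1.62 (SE 0.34, adjusted p = 0.00815) by limma, and the call was made with every library left out in turn. With age Klf2 gave 0.96 (SE 0.34, adjusted p = 0.14) by limma and was not called. Klf6 read 311, 404 and 289 in Spic_WT, 697 and 538 in Spic_KO, 436 and 222 in adult wild type and 420.2, 538, 339 and 294 in CreERT2. Klf4 read 50, 50.5 and 32.4 in Spic_WT, 21.5 and 148 in Spic_KO, 25.3 and 31.8 in adult wild type and 76.1, 28.8, 49.9 and 33.4 in CreERT2. Klf6 was higher in both Spic_KO libraries than in Spic_WT without a call, and Klf4 was scattered. Over the 3 KLF genes the age comparison gave 0 calls by limma, 1 at an unadjusted p under 0.05 (15.8% of all genes), 0 by edgeR (4.25%) and 1 by DESeq2 (7.62%).

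Feedback genes gave 3 of 14 age calls by limma, all higher in adults, and 0 in Spic_KO and CreERT2. Zfp36 read 748, 700.4 and 725 in Spic_WT, 1285 and 1125 in Spic_KO, 3746 and 1108 in adult wild type and 2169, 2520.0, 1936 and 1978 in CreERT2. Zfp36 was higher in both adult wild-type libraries, by 1.49 (SE 0.32, adjusted p = 0.0117) in limma, and without RPM_TAM_WT replicate 1 (log2 change 0.61, adjusted p = 0.496) it was not called. Ier5 read 128, 223 and 108 in Spic_WT, 304 and 273 in Spic_KO, 701 and 382 in adult wild type and 626, 895, 584 and 618 in CreERT2. Ier5 differed with age by 1.82 (SE 0.34, adjusted p = 0.00413) in limma, lost without RPM_TAM_WT replicate 1 (log2 change 1.38, adjusted p = 0.229). Btg1 read 276, 224 and 303 in Spic_WT, 390.5 and 292 in Spic_KO, 822 and 551 in adult wild type and 444, 736, 518 and 506 in CreERT2. Btg1 differed by 1.34 (SE 0.30, adjusted p = 0.0135) in limma, lost without RPM_d7_Spic_WT replicate 2 (adjusted p = 0.0686) or RPM_TAM_WT replicate 1 (log2 change 1.05, adjusted p = 0.36). Dusp1 read 923, 393 and 519.8 in Spic_WT, 557 and 257 in Spic_KO, 1076 and 630.1 in adult wild type and 914, 1135, 1073 and 630.5 in CreERT2. Btg2 read 386, 296 and 201 in Spic_WT, 288 and 227 in Spic_KO, 685 and 434 in adult wild type and 1019, 463, 635 and 679 in CreERT2. Zfp36l1 read 234, 284 and 246 in Spic_WT, 254 and 52.8 in Spic_KO, 646 and 527 in adult wild type and 764, 627, 688 and 746 in CreERT2. Dusp1 overlapped between the groups, Btg2 and Zfp36l1 were higher in both adult wild-type libraries than in Spic_WT without a call by limma or edgeR, and Spic_KO replicate 2 was lowest for Zfp36l1.

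Ier2 read 131, 96 and 80.9 in Spic_WT, 78.1 and 131 in Spic_KO, 182 and 47 in adult wild type and 60.2, 102, 36.7 and 109 in CreERT2. Ier3 read 91.2, 39.6 and 70.5 in Spic_WT, 47.1 and 145 in Spic_KO, 21.2 and 12.7 in adult wild type and 29.5, 48.8, 27.3 and 30.8 in CreERT2. Gadd45b read 7.33, 10.5 and 15.9 in Spic_WT, 41.5 and 51.7 in Spic_KO, 98.8 and 29.7 in adult wild type and 34.1, 15.5, 30.1 and 11.6 in CreERT2. Ier3 was lower in both adult wild-type libraries than in any Spic_WT library, -1.89 (SE 0.63, adjusted p = 0.116) by limma, and Gadd45b was higher in both Spic_KO libraries, 2.01 (SE 0.76, adjusted p = 0.151) by limma, with neither called by limma or edgeR. DESeq2 called Ier3, Btg2, Zfp36l1, Dusp2 and Gadd45b with age, and Dusp2 and Gadd45b in Spic_KO. Dusp2 read 38.4, 38.5 and 62.5 in Spic_WT, 133 and 127 in Spic_KO, 194 and 51.7 in adult wild type and 123, 166, 102 and 110.4 in CreERT2. Dusp5 read 25, 24.9 and 32 in Spic_WT, 62.1 and 96.8 in Spic_KO, 40.8 and 30.4 in adult wild type and 44.3, 51, 50.8 and 12.8 in CreERT2. Dusp2 and Dusp5 were above Spic_WT in both Spic_KO libraries. Their Spic_KO changes were 1.5 (SE 0.50, adjusted p = 0.105) and 1.48 (SE 0.66, adjusted p = 0.225) by limma and were not called by limma or edgeR. Ppp1r15a read 193, 129 and 155 in Spic_WT, 84.1 and 187 in Spic_KO, 292 and 269.5 in adult wild type and 253, 304, 267 and 172 in CreERT2. Csrnp1 read 7.33, 27 and 13.9 in Spic_WT, 17.5 and 30.5 in Spic_KO, 21.2 and 20.6 in adult wild type and 51.1, 19.9, 59.3 and 43.7 in CreERT2. Neither was called in any comparison of this table by limma, edgeR or DESeq2. Socs3 ranged from 0 to 16. Over the 14 feedback genes Spic_KO had 6 at an unadjusted limma p under 0.05 (18.6% of all genes), 0 by edgeR (5.7%) and 2 by DESeq2 (10.4%), and CreERT2 had 0 by each of these.

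Heat shock genes gave 1 age call by limma. Hspa8 read 1912, 1570.0 and 1939 in Spic_WT, 1594 and 1571 in Spic_KO, 424 and 506 in adult wild type and 253, 197, 419 and 279 in CreERT2. Hspa8 was lower in all 6 adult libraries than in all 5 day-7 libraries, and adult wild type differed from Spic_WT by -1.95 (SE 0.28, adjusted p = 0.000414) in limma. This call was made with every library left out in turn, and it alone remained of the 7 without RPM_TAM_WT replicate 1. Hsp90aa1 read 678, 818 and 697 in Spic_WT, 1077 and 1159 in Spic_KO, 783 and 558 in adult wild type and 577, 649, 569 and 592 in CreERT2. Hsp90aa1 was higher in both Spic_KO libraries than in Spic_WT. That change was 0.62 (SE 0.24, adjusted p = 0.155) by limma, called by DESeq2 and not by limma or edgeR. Hspa1a read 5.05, 1.4 and 8.09 in Spic_WT, 16 and 0 in Spic_KO, 121 and 1.81 in adult wild type and 0, 19.9, 66.8 and 5.14 in CreERT2. Hspa1a reached 121 in adult wild type replicate 1 and 1.81 in replicate 3. Hspa1b ranged from 0 to 119 and Dnajb1 from 17.7 to 175, and limma called neither in any comparison. With age edgeR and DESeq2 called Hspa1b, whose adult wild-type libraries lay far apart, at 2.53 and 119. In Spic_WT it ranged from 0 to 0.971.

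**Figure D5:**
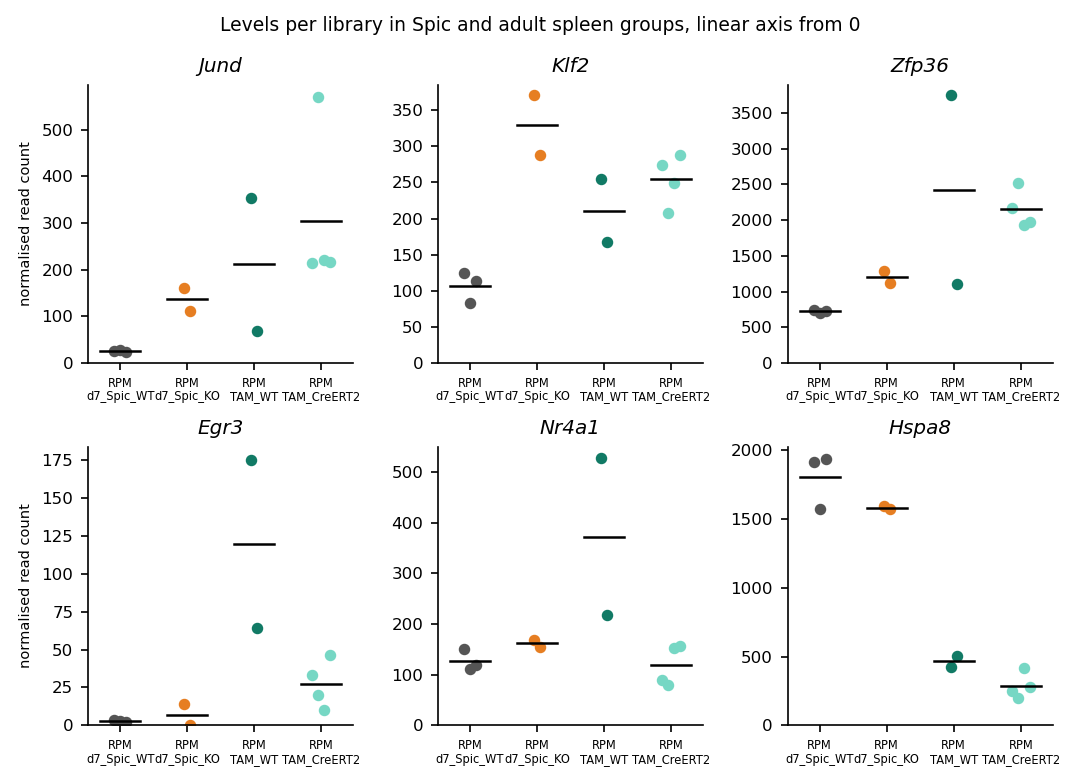
Normalised read count of 6 members in each library of the Spic and adult table, 1 point per library, with the group mean as a line, on linear axes from 0. Hspa8 lies at 197 to 506 in the 6 adult libraries and 1570.0 to 1939 in the 5 day-7 libraries, and RPM_TAM_WT replicate 1 is the higher adult control for the 5 other genes shown.

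Without RPM_TAM_WT replicate 1 the age comparison called 1 member and 44 of all tested genes, and without RPM_TAM_WT replicate 3 it called 11 members and 727 genes, against 569 genes with all libraries. Age, the TAM label and depth change together between adult wild type and day-7 Spic_WT, and their parts cannot be told apart. All libraries of the first-named group lay above the control libraries for 15 members (18.4% of all genes) and below them for 3 (19.2%) with age, for 13 (14.8%) and 1 (19.4%) in Spic_KO, and for 2 (6.07%) and 4 (7.6%) in CreERT2. In CreERT2, 3 members had an unadjusted limma p under 0.05 (7.47% of all genes), edgeR called 0 (0.174% of all genes) and DESeq2 called 1 (0.823% of all genes), Nr4a1. Beside these results, 7 of 12 macrophage markers were called lower in Spic_KO, at 0.951 to 1.07% of all values against 1.8 to 2.58% in Spic_WT, and mitochondrially encoded transcripts made up 1.24 to 1.89% against 3.77 to 4.48%. Erythroid markers made up 5.22 to 7.38% in Spic_WT, 7.56 to 11.1% in adult wild type and 12.7 to 20.8% in CreERT2. With age and in CreERT2 limma called 2 of 12 higher, the globin genes Hba-a1 and Hba-a2, and 0 lower. Of the 12, 7 had a negative log2 change with age and 8 in CreERT2. Of 9 tested B cell markers 5 were called higher in adult wild type than in Spic_WT (0.0739 to 0.0828% against 0.0327 to 0.0438%). In that comparison monocyte markers made up 0.0383 to 0.0406% against 0.00243 to 0.00741%, with 2 of 8 called higher, dendritic cell markers 0.019 to 0.0323% against 0.00269 to 0.00668%, with 1 of 7 higher, and T and NK cell markers 0.0057 to 0.00794% against 0.000601 to 0.000827%, with 1 of 9 higher. Eosinophil and mast cell markers made up 0.0296 to 0.031% against 0.0631 to 0.0783%. Of 7 tested 1 was called lower, Ear2, while 5 had a positive log2 change, with a median of 0.76 over the 7. Macrophage markers made up 1.47 to 1.91% against 1.8 to 2.58%, with 4 of 12 lower, and mitochondrially encoded transcripts 1.96 to 3.3% against 3.77 to 4.48%. Depth was 1.9 to 4.24 M reads in adult wild type, 0.693 to 1.67 in CreERT2, 2.85 to 3.07 in Spic_KO and 4.24 to 6.29 in Spic_WT. Their part in the member changes was not tested.

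Other immediate early genes moved both ways in Spic_KO, with 3 of 26 called higher and 3 lower. Sgk1 changed by -3.38 (SE 0.43, adjusted p = 8.5e-05), Trib1 by 2.24 (SE 0.42, adjusted p = 0.00368) and Bhlhe40 by -3.64 (SE 0.76, adjusted p = 0.00863) by limma. With age 2 were higher and 0 lower, the survival kinase gene Pim1 at 1.94 (SE 0.48, adjusted p = 0.0274) and Nfkbiz at 1.69 (SE 0.46, adjusted p = 0.047) by limma. Of 22 MAP kinase and SRF genes 2 were higher in Spic_KO, Mapk3 at 1.9 (SE 0.45, adjusted p = 0.0197) and Mapkapk2 at 1.58 (SE 0.42, adjusted p = 0.0375) by limma, and 0 with age, where 5 had an unadjusted limma p under 0.05, edgeR called 0 and DESeq2 called 3. Of 14 bZIP partners 2 were higher in Spic_KO: Cebpb, a factor of inflammatory myeloid genes, at 2.91 (SE 0.49, adjusted p = 0.0013) and Mafg, a small partner protein of the family, at 1.95 (SE 0.41, adjusted p = 0.00883) by limma. Cebpb was also the 1 called with age, at 2.55 (SE 0.49, adjusted p = 0.00477) by limma. Other heat shock genes gave 0 of 13 calls in Spic_KO and with age, with 1 and 4 at an unadjusted limma p under 0.05, 0 by edgeR in each and 0 and 1 by DESeq2. CreERT2 had 0 called in all 4 lists by limma and edgeR, with 0 to 5 genes at an unadjusted p under 0.05 and 0 to 1 by DESeq2. Of all tested genes 18.6% had an unadjusted limma p under 0.05 in Spic_KO, 15.8% with age and 7.47% in CreERT2. In the same order edgeR called 5.7, 4.25 and 0.174% and DESeq2 10.4, 7.62 and 0.823%.

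Dnajb1, Fosl2, Hspa1b, Myc and Socs3 were tested and called by limma in no comparison. By median, members varied about as much between libraries of a group as all tested genes in the first table, and less in the other. At a mean log2 level of at least 7 they varied more in both tables. The median pooled SD of log2 values was 0.52 for the members against 0.54 for all tested genes in the first table, and 0.63 against 0.86 in the other. Among genes with a mean log2 level of at least 7 it was 0.38 (25 members) against 0.32, and 0.43 (16 members) against 0.37. Hsp90aa1 was the steadiest member in both tables, at 0.14 and 0.16, and Hspa1b (2.15) and Hspa1a (2.55) were the most variable.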

How the data were processed

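Libraries came from 1000 sorted macrophages each, by oligo-dT priming, PCR and Nextera XT tagmentation, per the labels' protocols. The submitters' processing notes list STAR, edgeR and GRCm38 with no version or role. Strand and counting rules are not given in the sources used here.

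The authors deposited normalised expression per gene, a signal unit: values in each library were whole reads times 1 factor for 96.6 to 100% of entries (tolerance 0.1 read), which gave depths of 0.693 to 21.7 M reads. The deposited tables hold 12 and 11 libraries, 22524 and 25700 genes, and were scaled separately, so every test stayed within a table.

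Genes reaching 1 in 2 or more libraries were tested with limma 3.58.1 (trend, robust; R 4.3.3) on log2(value + 1), all groups of a table in 1 fit, with Benjamini-Hochberg adjustment over all tested genes and a threshold of 0.05. The fold understates changes of low genes. The procedure was tested on simulated data. Alternatives were no filter, a minimum of 10, pseudocounts of 0.1 and 5, TMM scaling, the compared groups only, a replicate block, an absolute log2 change of at least 1, leaving out each library, and edgeR 4.0.16 and DESeq2 1.42.0 on the recovered reads. After the data were seen, RPM_d7_Spic_KO replicate 2 and RPM_TAM_WT replicate 1 were also left out together.

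Members, role classes and other gene lists were chosen with earlier results of these data known. Values in every library are given for each member called in at least 1 comparison and for the 2 members of highest mean in each class and table, and by range for the rest. From other lists at most 3 called genes per comparison, those of lowest adjusted p, are named. A result for 1 gene of these lists is not reported here. Counting intervals of read ratios are exact 95% intervals and cover counting error only.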

Additional observations from a re-analysis of the deposited data

Results flagged for a closer look

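The adult CreERT2 spleen group was the 1 group of 4 libraries, and 36 members were checked in it for a library far from the other 3, measured as the gap to the nearest library over the range of the group, with Dixon's 95% critical value as the limit. Chance passes that limit in about 1 in 20 groups, and 5 of the 36 members passed it, where 20.5% of all tested genes that varied in the group did. Replicate 2, the shallowest library at 0.693 M recovered reads, was high for 4 of the 5, and it was the high library for 7.99% of all those genes against 3.38 to 4.3% for each of the others. Junb read 771 there against 474, 475 and 508, and Jund, the other JUN gene, read 569.5 against 214, 216 and 221. Ier3 read 48.8 there against 27.3, 29.5 and 30.8, and Ier5 read 895 against 584, 618 and 626. In replicate 5 Atf3 was low, at 33.4 against 68.7, 73.4 and 75. None of the 5 genes was called between CreERT2 and adult wild type by limma, edgeR or DESeq2.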

How the results depend on the processing

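No member called in a comparison changed sign in it under the alternatives run. Leaving out each library in turn gave 12 to 16 members between wild-type tissues, 17 to 21 between vavCre tissues, 0 to 3 members for vavCre in spleen, 3 to 6 for vavCre in marrow, 0 to 1 for the difference between those effects, 1 to 3 for Spic_KO, 0 for CreERT2 and 1 to 11 for adult against day 7. Fitting the compared groups only gave 1 member for vavCre in marrow and 12 with age, and requiring a log2 change of 1 in size left 2 of the 5 in marrow. DESeq2 called 1 member for the difference between the vavCre effects, 5 in Spic_KO, 1 in CreERT2 and 17 with age, edgeR with RLE scaling called 13 with age, and leaving out both RPM_d7_Spic_KO replicate 2 and RPM_TAM_WT replicate 1 left 1 with age. The cause of these moves was not tested.

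Over all genes, DESeq2 called 1290 for vavCre in spleen against 835 by limma, 966 against 588 between wild-type tissues and 963 against 529 between vavCre tissues, 101 against 18 for the difference, 1736 against 658 in Spic_KO, 137 against 24 in CreERT2 and 1269 against 569 with age. Higher and lower calls in Spic_KO were 245 and 413 by limma, 554 and 395 by edgeR with TMM, 655 and 380 with RLE and 932 and 804 by DESeq2, and with age 260 and 309 by limma, 450 and 275 with RLE and 760 and 509 by DESeq2. In CreERT2 they were 10 and 14 by limma and 8 and 21 by edgeR. Without a filter 11 genes were called for the difference and 5 in CreERT2, edgeR called 31 for the difference, and pseudocounts of 0.1 and 5 left 14 and 9 in CreERT2. The block left 332 genes in Spic_KO, and leaving out both libraries left 324 in Spic_KO, 3 in CreERT2 and 110 with age. The compared groups alone gave 1367 genes for vavCre in spleen, 742 against 1182 in marrow, 37 in CreERT2 and 1637 with age.

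Same-numbered libraries did not deviate together (correlations of -0.04 to 0.06), so the numbers are taken as names. With the replicate number as a block, 4 members were called for vavCre in spleen, 5 in marrow, 0 for the difference, 16 between wild-type tissues, 21 between vavCre tissues, and 1 in Spic_KO, and the block ended the calls of Csrnp1 for vavCre in marrow (adjusted p = 0.0628, limma) and between vavCre tissues (0.052), of Hsp90aa1 between vavCre tissues (0.0502) and of Jund in Spic_KO (0.0696). For CreERT2 no paired analysis was possible because adult wild type and CreERT2 share only 1 number, and none was made between pups and adults.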
